A study of Mus musculus with 36 samples.

Results

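H3K9ac is acetylation of lysine 9 on histone H3, a mark placed by acetyltransferases such as GCN5 and PCAF and removed by histone deacetylases. It is concentrated over active promoters and enhancers and spreads from a promoter into the transcribed part of the gene. H3K9ac away from a start site often marks enhancers, alternative start sites or the broad domains of highly transcribed genes. The regions described here are the H3K9ac peaks that the authors' annotation places in an exon, in the 3' untranslated region (UTR), in the 5' UTR or just downstream of a gene. Members were all rows of the authors' H3K9ac table with one of these annotations, whatever the direction of the difference, and they number 812 of 8115 listed peaks. They comprise 385 exon peaks, 279 3' UTR peaks, 30 5' UTR peaks and 118 downstream peaks, assigned to 728 genes.

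Primary aortic smooth muscle cells came from C57BL/6N mice (wild type) and from mice lacking cystathionine gamma-lyase throughout the body (CSE knockout). CSE, encoded by Cth, makes hydrogen sulfide from cysteine. Both genotypes were given 1 µM angiotensin II, a vasoconstrictor peptide, for 24 hours, and the groups used here hold no cells without it, so nothing here separates the genotype from its combination with angiotensin II. The deletion is global and not restricted to smooth muscle, and the ages, sexes and numbers of mice are not given in the labels. Chromatin was immunoprecipitated with 3 libraries per genotype for H3K9ac, each group with 3 input libraries, and the labels do not say whether the 3 came from separate mice or cultures. The 36 libraries of the series also cover H3K9me3 and H3K4me3. The H3K9ac table lists only peaks selected at a p of 0.05 by its title, and its p-values run from 0.000101 to 0.0499. Any peaks with a p under 0.0001 are therefore absent from the shares, smallest p-values, largest folds and runs below. It gives 1 log2 signal per genotype and none per library, so the depth is unknown and no spread between libraries could be computed.

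Every signal, log2 fold change, p and false discovery rate (FDR) below is the authors' own, from the authors' deposited table. A signal is the log2 of the mean normalised reads of a genotype, the fold compares knockout with wild type, and an FDR under 0.05 is taken as a call. The gene name on a peak is the gene with the nearest start site in that table, which is not always the gene that the peak lies in. For the exon peaks the annotated exon belonged to the named gene in 286 of 385 cases. Of the 3' UTR peaks, 139 of 279 lay under the named gene. The gene under the peak is therefore given wherever it is another one. The cell type could be checked only where markers named or lay under a listed peak. Smooth muscle markers had 9 such H3K9ac peaks, 7 lower and 2 higher, among them an Acta2 exon peak with a wild-type signal of 7.88. Of 5 lists of markers of other cell types, leukocyte markers had 3 higher peaks (Aif1 and 2 for Cd14, log2 fold changes of 0.73 to 1.60, FDR 0.231 to 0.322) and 1 lower one in Csf1r (-0.66, FDR 0.243). Endothelial and fibroblast markers each had 1 lower and 1 higher peak, adipocyte markers 1 lower and neural crest markers 0. The part of other cell types in the results was not tested, and peaks selected for a difference do not show which cell types were present.

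Sequences help to place these peaks, because a member is defined by being away from a start site while its gene may also have a listed peak over the start itself. The following lines give the 30 bases just before the start site (positions -30 to -1, gene strand, RefSeq, GRCm38.p6) for 7 genes with a member peak and a listed promoter peak that covers the whole RefSeq start window of 250 bases before to 50 after the start. In 5 of them both kinds of peak differed in 1 direction and in 2, Slc7a11 and Akap5, in opposite directions. Capitals mark GGGCGG or its reverse complement CCGCCC, the letters of a GC box. The 7 were picked from 23 such genes after their values were seen, and a link between these letters and direction was not tested. Csf1, Cspg4 and Dennd2a, not printed, were lower at both kinds of peak and lack the letters in these 30 bases, while Hunk and Kank1 have them. Tacc2 and Zmynd8, in opposite directions, lack them there. The Akap5 start window holds them outside the 30 bases.
Myh9 (chr15:77842176-77842205, minus strand): agccggcggcgagctgtagacCCGCCCtcc
Zyx (chr6:42349798-42349827, plus strand): gggtggtctgtgcccggcggGGGCGGtggt
Fbln2 (chr6:91212734-91212763, plus strand): gcaaaatcgaggccCCGCCCtgaggcggga
Bst2 (chr8:71537473-71537502, minus strand): gtggtgGGGCGGggttatgctaataagggc
Nfatc2 (chr2:168590366-168590395, minus strand): ccaccagccaccgccgtccCCGCCCcctcc
Slc7a11 (chr3:50443614-50443643, minus strand): ccagtaagttggtgtgacaggcggttgctt
Akap5 (chr12:76324861-76324890, plus strand): ggagggggcgcgcggctgcggtccctctgc
Of the 728 genes, 478 had a RefSeq start window, 609 windows in all. GGGCGG on either strand was present in 59.1% of these windows, in 53.7% of 4014 windows of the genes with other listed H3K9ac peaks only and in 35.7% of all 32851 windows in the table. TATAAA on either strand was present in 6.90%, 8.97% and 13.6%. CCAAT on either strand was present in 36.3%, 36.0% and 37.4%, and TGANTCA, the letters of an AP-1 site, in 6.08%, 6.68% and 7.81%. Median GC content was 60.3%, 59.0% and 52.7%. For the GC box, the TATA letters and GC content the members' windows lay nearer to those of the other listed genes than to all windows. These matches describe letters only, not sites.

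The main pattern of the members was a one-sided direction. Lower signal in the knockout was listed for 722 of the 812 peaks and higher signal for 90, so 88.9% were lower (exact binomial 95% interval 86.6 to 91.0, counting error only). Over all listed H3K9ac peaks 77.2% were lower. By class, 3' UTR peaks were lower in 258 of 279 cases (92.5%, 88.7 to 95.3), exon peaks in 340 of 385 (88.3%, 84.7 to 91.4), 5' UTR peaks in 26 of 30 (86.7%, 69.3 to 96.2) and downstream peaks in 98 of 118 (83.1%, 75.0 to 89.3). The classes outside the members had smaller shares, at 79.3% of 3647 promoter peaks, 74.5% of 2237 intron peaks and 69.4% of 1419 distal intergenic peaks. These shares compare lists of selected peaks from the same 6 libraries, and neighbouring peaks are not independent, so the differences between classes were not tested.

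**Figure D1:**
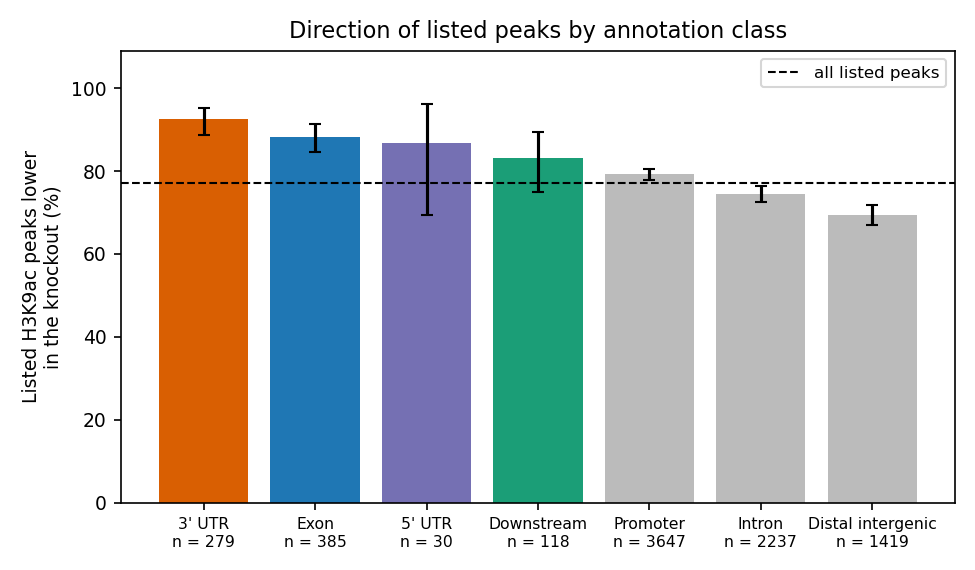
Share of listed H3K9ac peaks that were lower in the knockout (y axis, percent, starting at 0) in each annotation class (x axis, with the number of peaks). Error bars are exact binomial 95% intervals for counting error, and the dashed line is the 77.2% of all listed peaks. The 3' UTR bar is the tallest at 92.5% and the distal intergenic bar the lowest at 69.4%.

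Among the listed peaks, the lean toward lower signal did not come with more peaks past the FDR limit. An FDR under 0.05 was reached by 129 members (15.9%), against 16.6% of all listed peaks. Of the 129, 112 were lower and 17 higher. Calls that were lower made up 12.6% of all listed peaks (1019), and 325 calls over all listed peaks were higher. The 129 comprised 63 exon, 43 3' UTR, 5 5' UTR and 18 downstream peaks. In 559 members (68.8%) the difference was at least 1 on the log2 scale, and the median fold was 2.25 among the lower and 2.50 among the higher members. Over all listed peaks the median fold was 2.19 among the lower and 2.50 among the higher.

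Signals of the members were of ordinary height. Median log2 signal was 4.65 in the knockout and 5.63 in the wild type, against 5.01 and 5.61 over all listed peaks. The 5' UTR peaks were stronger and wider, with medians of 5.98 in the knockout, 6.81 in the wild type and 1211 bp, against 727 bp for exon, 753 bp for 3' UTR and 642 bp for downstream peaks. Some folds rest on low signals. In 46 members a genotype had a log2 signal under 2, the knockout in 39 lower peaks and the wild type in 7 higher peaks. The lowest values, -0.19 in the knockout and -0.21 in the wild type, recur in 17 and 12 listed peaks, of which 4 and 1 are members.

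**Figure D2:**
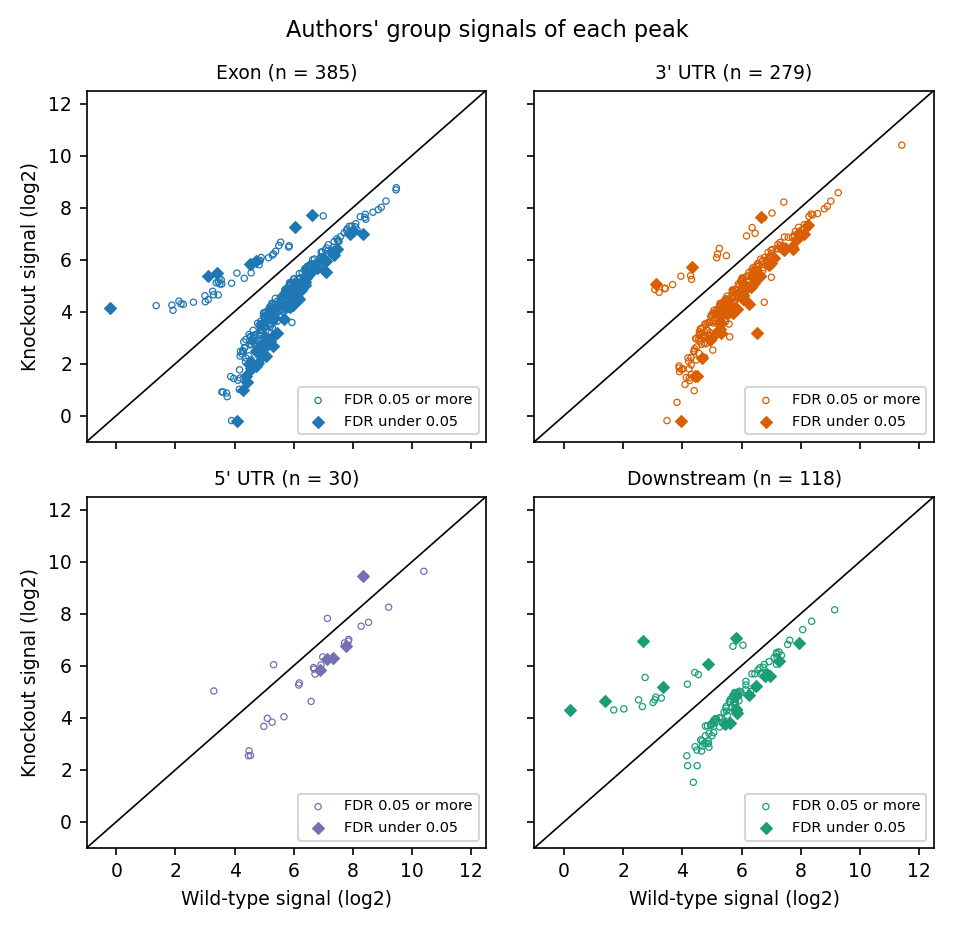
Authors' log2 signal of each peak in the wild type (x axis) and the knockout (y axis), with 1 panel per class; filled diamonds have an FDR under 0.05, open circles do not, and the line marks equal signals. Most points lie below the line in every panel, and the leftmost point is the Trp53bp1 exon peak, at the lowest wild-type signal in the table (-0.21).

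Among exon peaks that were lower, the smallest p belonged to Lrrc8d, a subunit of volume-regulated anion channels. Its peak in exon 3 of 3 (chr5:105831994-105832882) had a log2 signal of 4.25 in the knockout and 5.98 in the wild type, a 3.34-fold fall (FDR 0.00642). Exon 7 of 15 of Sh3pxd2a, which encodes the podosome scaffold Tks5, fell 2.57-fold from a high wild-type signal of 8.33 to 6.97 (FDR 0.00676). The AP-1 factor gene Fosl2 fell 3.20-fold in exon 3 of 4, from 5.86 to 4.18 (FDR 0.0072). Smyd2 encodes a lysine methyltransferase, and its peak in exon 4 of 10 fell 4.93-fold, from 5.19 to 2.88 (FDR 0.00842). Loxl1, an enzyme that cross-links elastin, had the largest fold of these exon peaks, with 5.30 in the wild type and 2.69 in the knockout over exon 2 of 7 (6.11-fold, FDR 0.0118). The peak assigned to Pcnx fell 2.99-fold (FDR 0.00844) and lies in an exon of another gene, 6.80 kb from the Pcnx start. The wild-type signals of these exon peaks ran from 5.19 to 8.33.

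Higher exon peaks were fewer, 45 of 385, and 7 of them passed the FDR limit. Trp53bp1, a repair factor recruited to DNA double-strand breaks, rose over exon 5 of 27 (FDR 0.0115) to a knockout signal of 4.15. Its wild-type signal of -0.21 is the lowest in the table and shared by 12 listed peaks, so no fold is given. E2f2, a cell cycle transcription factor, rose 2.31-fold over exon 6 of 7, from 6.05 to 7.26 (FDR 0.0207). Mlf2 rose 2.11-fold, from 6.62 to 7.70 (FDR 0.0124), in an exon of another gene. Sppl2a encodes an intramembrane protease and rose 4.86-fold, from 3.10 to 5.38 (FDR 0.0151). A peak whose nearest start is that of Lox, the lysyl oxidase that cross-links collagen and elastin, rose 2.50-fold (FDR 0.0322), but it lies in an exon of another gene 33.7 kb from the Lox start. The E2f2 and Mlf2 peaks were the ones of these with a wild-type signal above 6.

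The 3' UTR peaks had the fewest higher members for their number, 21 of 279. Bcr, a regulator of small GTPases, had the smallest p, shared with Ptma. Its 3' UTR peak (chr10:75183097-75183730) fell 3.20-fold, from 5.74 to 4.06 (FDR 0.0075). Ptma encodes the nuclear protein prothymosin alpha, and its 3' UTR peak fell 2.19-fold, from 8.12 to 6.98 (FDR 0.0075). Nol12, a nucleolar protein gene, fell 2.06-fold, from 7.48 to 6.45 (FDR 0.0112). Ferric reductase gene Frrs1 had the largest fall among members with a mean log2 signal of at least 5, from 6.51 to 3.17 (10.1-fold, FDR 0.0152). In 2 cases the named gene was a neighbour: the peak assigned to the amino acid transporter gene Slc7a6 lies in Pla2g15, a lysosomal phospholipase gene (2.46-fold lower, FDR 0.00943), and the peak assigned to the adenosine receptor gene Adora2b lies in Specc1, 27.0 kb away (2.64-fold lower, FDR 0.0119).

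The 3 higher 3' UTR peaks past the FDR limit were named for Pgam5, Podxl and Bst1. Bst1, an ectoenzyme that uses NAD, rose 1.96-fold, from 6.66 to 7.62 (FDR 0.0341). The Podxl peak rose 2.57-fold, from 4.34 to 5.70 (FDR 0.0333), and lies in Mkln1. The Pgam5 peak lies in Pxmp2, a peroxisomal membrane protein gene, and rose 3.81-fold, from 3.12 to 5.05 (FDR 0.0289). Next by p were Lrrc28 at 2.66-fold higher (FDR 0.0866) and a peak in Pik3r3, a regulatory subunit of PI3-kinase, at 3.43-fold higher (FDR 0.1), named for Mast2. Neither passed the limit.

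The 5' UTR peaks, all over 3 kb from the nearest start site in the table, included Ddr1, a receptor tyrosine kinase for collagen. Its peak fell 2.04-fold, from 7.32 to 6.29 (FDR 0.0128). Pomk, a kinase that acts on the sugar chain of dystroglycan, fell 2.06-fold, from 6.90 to 5.85 (FDR 0.0168). Tcp11l2 fell 1.85-fold, from 7.14 to 6.25 (FDR 0.0487). Susd6 was the 1 called 5' UTR peak that was higher, with 9.44 in the knockout and 8.33 in the wild type (2.16-fold, FDR 0.0153), 36.5 kb from the start. The sterol synthesis gene Msmo1 (3.32-fold higher) and the heparan sulfate endosulfatase gene Sulf2 (1.60-fold higher) both had an FDR of 0.248. An exon peak named for Msmo1, next to its 5' UTR peak, was lower (7.07 to 6.37, FDR 0.286). Relb, a subunit of NF-kappaB, had a 3.89-fold lower 5' UTR peak with an FDR of 0.202.

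Downstream peaks held 6 of the 17 called members that were higher. Gapvd1, which activates Rab5, had a downstream peak that rose 19.7-fold, from 2.68 to 6.97 (FDR 0.0293). Slc36a1, a proton-coupled amino acid transporter, was the nearest start to a peak that rose 17.2-fold from a wild-type signal of 0.20, close to the lowest in the table, to 4.29 (FDR 0.00699), 34.3 kb away and just downstream of Fat2. Bst2, the antiviral membrane protein tetherin, rose 9.71-fold downstream of the gene, from 1.38 to 4.66 (FDR 0.0108). Txndc2 rose 2.43-fold, from 5.80 to 7.08 (FDR 0.0156). Called downstream peaks that were lower included one named for the kinase gene Gsk3a and lying just past the ETS repressor gene Erf (2.53-fold, from 6.96 to 5.62, FDR 0.0113). A peak named for Bves and lying just past Lin28b fell 2.81-fold (FDR 0.012), and Slc35e3 fell 2.40-fold (FDR 0.0143). Of 18 called downstream peaks, 12 were lower and 6 higher.

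The share of exon peaks that were lower also varied with position along the gene. Of 282 exon peaks that could be placed in a RefSeq gene, 74 of 87 in the first 50% of the gene were lower (85.1%), 153 of 160 between 50% and 90% (95.6%) and 35 of 35 in the last 10%. Intron peaks had 73.8% lower in the first 50% of 857 peaks, 79.3% in the middle range (571 peaks) and 90% in the last 10% (100 peaks). The 3' UTR peaks lay at a median of 94.4% along the gene. Their share lower showed no such order over the 202 placed ones, at 9 of 10 in the first 50%, 60 of 62 between 50% and 90% (96.8%) and 121 of 130 in the last 10% (93.1%). Of the 22 placed 5' UTR peaks, 10 of 14 were lower in the first 50% and 8 of 8 between 50% and 90%. By the authors' exon numbers, internal exons were lower in 253 of 276 cases (91.7%), last exons in 62 of 76 (81.6%) and second exons in 20 of 27 (74.1%). No member was annotated to a first exon. Listed peaks within 3 kb of a start are annotated as promoter peaks, so this largely follows from the definition of the classes. Exon number follows 1 transcript of the gene while the position uses its full RefSeq span, so a last exon of a short transcript can lie early in the gene.

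The members had the larger share lower within each distance bin. They lay 3.00 to 107.7 kb from the nearest start, with a median of 6.24 kb. Between 3 and 5 kb, 88.1% of 312 members were lower, against 73.4% of 454 intron and 67.0% of 179 distal intergenic peaks. Between 5 and 10 kb the shares were 91.0%, 74.1% and 67.8%, and between 10 and 20 kb 90.7%, 76.5% and 69.0%. Between 20 and 50 kb the gap was narrower, at 83.1% of 71 members, 74.2% of intron and 75.7% of distal intergenic peaks. The closest member, an exon peak of Uba2 at 3.001 kb, and the promoter peak farthest from a start, of Gm38001 at 2.998 kb, both had a log2 fold change of -0.80.

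**Figure D3:**
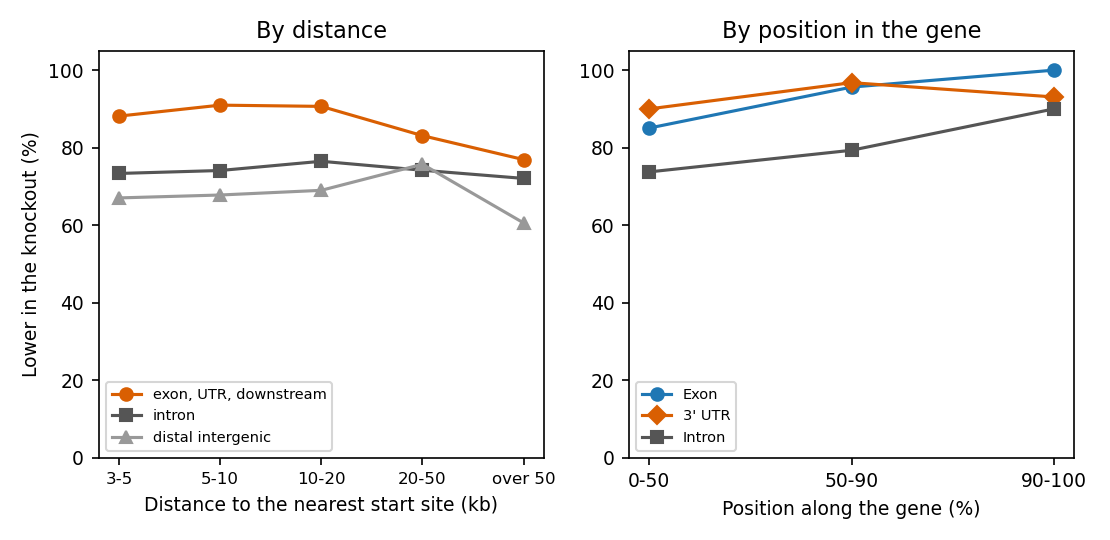
Share of peaks lower in the knockout (y axis, percent) by distance to the nearest start site in kb (left) and by position along the RefSeq gene in percent (right). Exon, UTR and downstream peaks lie above intron peaks in each distance bin, most widely from 3 to 20 kb, and the last point (over 50 kb) rests on 13 of them; on the right, exon peaks go from 85.1% to 100%.

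Signal height moved with the direction, and members and other peaks were nearest to each other at high signal. At a mean log2 signal of 2 to 4, 84.5% of 103 members and 67.6% of the other listed peaks were lower. The shares were 86.9% and 71.8% at 4 to 5, 90.8% and 74.9% at 5 to 6, and 91.7% and 81.9% at 6 to 7. At 7 and above they were 90% of 80 members, 84.1% of the others and 90.3% of intron peaks alone. Gene length differed between the classes too, with a median of 43.7 kb under exon peaks, 29.6 kb under 3' UTR peaks and 93.5 kb under intron peaks. Within genes of 20 to 50 kb, 90.7% of 225 members and 72.0% of 422 intron peaks were lower, and in genes over 100 kb 89.2% of 130 and 76.9% of 931. The part of expression level, sequence composition or normalisation in these shares was not tested.

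Chromosomes differed widely in direction, and the members followed them from above. On each of the 20 chromosomes with members, the share lower was above that of the other listed peaks of the same chromosome. On chromosome 10, 55 of 56 members were lower, and on chromosome 7, 68 of 71. Chromosomes 18 and 4 stood apart at the other end, with 11 of 22 and 6 of 11 members lower, against 35.5% and 36.4% of their other listed peaks. The gap was widest on chromosome 11, where 80.5% of 41 members and 49.6% of the others were lower. When the other peaks were weighted to the chromosomes of the members, 77.3% of them were lower.

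**Figure D4:**
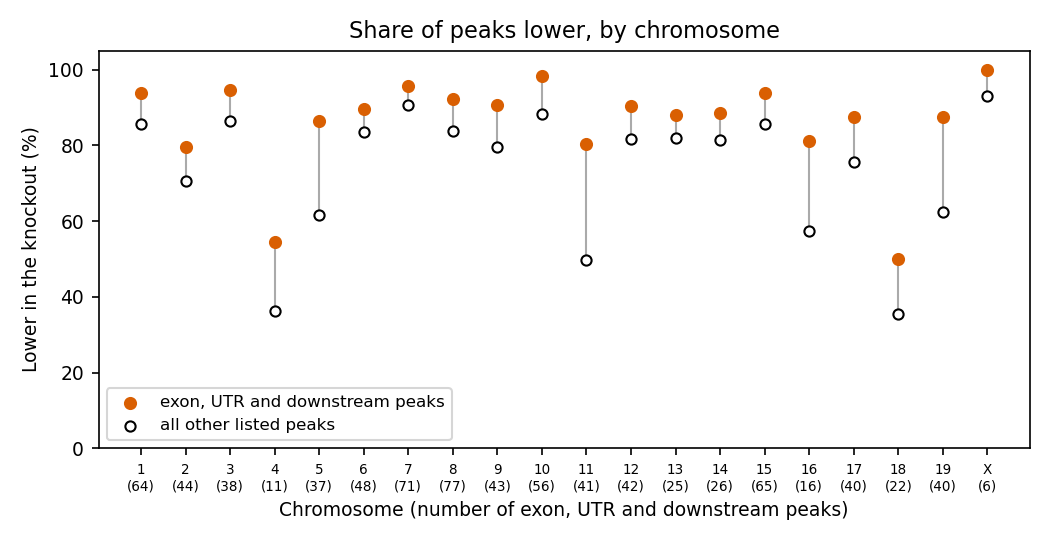
Share of peaks lower in the knockout (y axis, percent) on each chromosome (x axis, with the number of exon, UTR and downstream peaks in brackets); filled points are those peaks, open points all other listed H3K9ac peaks. The filled point is the higher one on all 20 chromosomes, and both fall furthest on chromosomes 4 and 18.

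Several genes carried runs of members. There were 70 genes with at least 2 member peaks, and in 66 all were lower, in 1 all were higher and in 3 both directions occurred. Myh9, the heavy chain of nonmuscle myosin IIA, had 5 members, 3 in exons and 2 in the 3' UTR annotation, and 6 listed promoter peaks. All 11 were lower, with member log2 fold changes from -1.11 to -0.75. The strongest member of all was one of them, 15970 bp wide with a log2 signal of 10.40 in the knockout and 11.42 in the wild type (chr15:77792173-77808141, 2.04-fold lower, FDR 0.0547). Its 3' UTR annotation does not place it at the end of the gene, since it lies 51.5% along the RefSeq gene and 5.09 kb from an annotated start. Of the Myh9 peaks, 1 promoter peak passed the FDR limit (FDR 0.0495), and the members reached FDRs of 0.0547 to 0.279.

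Other runs were in the same direction with modest folds. Lrrfip1 had 4 exon peaks, 1.66- to 2.03-fold lower, of which the one in exon 10 of 22 passed the limit (FDR 0.0219), beside 1 higher and 1 lower intron peak. Osbpl3, an oxysterol-binding protein gene, had 2 exon peaks and a 3' UTR peak that were lower at FDRs of 0.0695 to 0.31. The 3 exon peaks of D6Wsu163e were 2.22- to 4.79-fold lower, with 1 called (FDR 0.0129). Prpf19, a spliceosome ubiquitin ligase gene, had an exon and 2 3' UTR peaks that were 1.78- to 3.92-fold lower with FDRs of 0.0843 to 0.248.

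For some runs the name and the gene under the peaks differed. The 3 exon peaks named for Gpx4, a peroxidase that reduces lipid hydroperoxides, lie in Sbno2 and were 1.65- to 2.89-fold lower (FDR 0.0747 to 0.16). The 3 peaks named for Phlda3 lie in the 3' UTR of Csrp1, a muscle LIM protein gene, and were 1.69- to 1.89-fold lower. Those named for Slc29a3 lie in Unc5b, a netrin receptor gene, and were 2.46- to 3.27-fold lower. For Gm24261 the peaks lie in or past Marveld2, and were 1.68- to 7.21-fold lower. Of 3 peaks named for Smad7, an inhibitor of TGF-beta signalling, 2 lie in its own 3' UTR annotation (2.53- and 2.28-fold lower) and 1 in Ctif. No member of these 5 runs had an FDR under 0.05. The run named for Podxl was mixed: 2 3' UTR peaks were higher, 2.57-fold (FDR 0.0333) and 1.68-fold (FDR 0.142), and a downstream peak between them was 1.60-fold lower (FDR 0.229).

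**Figure D5:**
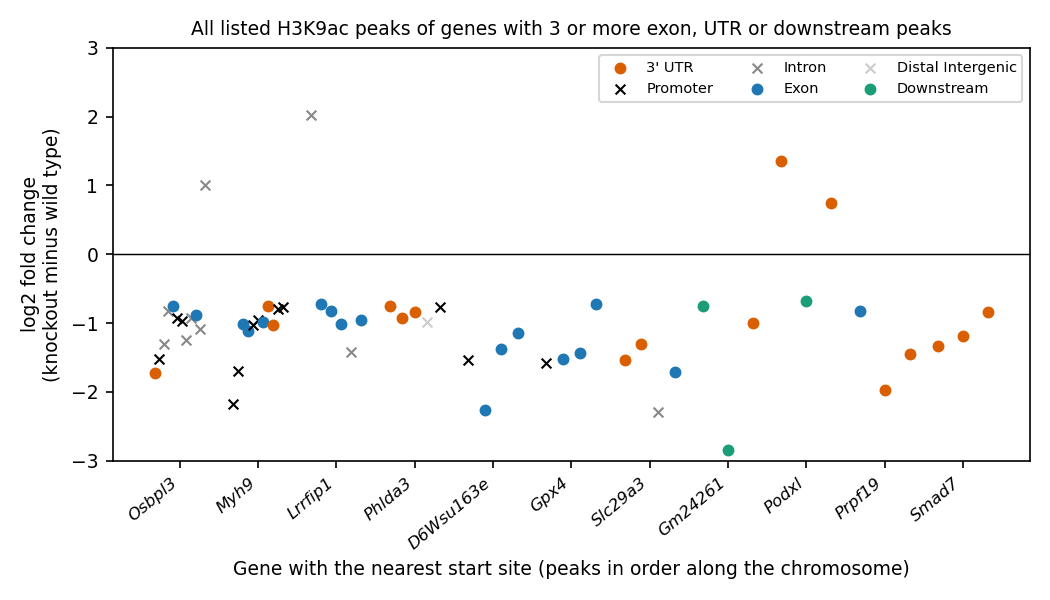
The log2 fold change (y axis, knockout minus wild type) of all listed H3K9ac peaks of the 11 genes with 3 or more exon, UTR or downstream peaks (x axis, peaks of a gene in order along the chromosome); filled circles are exon, UTR and downstream peaks and crosses other annotations. All 11 Myh9 peaks lie below 0, Podxl has peaks on both sides, and the 2 crosses above 0 are intron peaks named for Lrrfip1 and Osbpl3.

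Members were set beside other listed peaks of the same gene. For 345 members the gene had another listed peak outside these classes, and its peak of smallest p was in the same direction in 303 cases (87.8%), 283 of 316 for lower and 20 of 29 for higher members. Put the other way, the other peak was lower for 283 of 316 lower members and for 9 of 29 higher members, while 75.9% of all listed peaks outside these classes were lower. The difference was not tested. With promoter peaks only, direction was shared by 185 of 207 (89.4%), and with any listed peak within 10 kb by 262 of 284 (92.3%). These peaks come from the same libraries, and neighbours can be pieces of 1 broad domain. Bst2 and E2f2 were higher at both kinds of peak, and the Bst2 promoter peak went from 8.05 to 9.17 (FDR 0.0408). At Nfatc2, a calcium-regulated transcription factor gene, the 3' UTR peak was 2.79-fold higher (FDR 0.149) and the promoter peak had a log2 fold change of 2.24 (FDR 0.155). Zyx and Fbln2 were lower at both, with promoter log2 fold changes of -1.13 (FDR 0.0788) and -1.03 (FDR 0.0883).

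Opposite directions under 1 gene name were listed for 22 members with a promoter peak. In Bcr the 3' UTR peak fell while the promoter peak rose, at a log2 fold change of 0.98 (FDR 0.0241), and both passed the limit. No other of the 22 members passed it together with its promoter peak, although Wdr17 passed at the exon (log2 fold change -1.36, FDR 0.0213). Slc7a11, the cystine transporter subunit that supplies cysteine to the cell, had an exon peak with a log2 fold change of -1.71 (FDR 0.0553) and a promoter peak with 0.84 (FDR 0.29). The 3' UTR peak named for Akap5, a kinase-anchoring protein, had -0.88 (FDR 0.106) and the Akap5 promoter peak 1.33 (FDR 0.0422). That 3' UTR peak lies before Akap5, at -6154 bp from its start, so the annotation belongs to another gene. Lrrc28 was the reverse case, with 1.41 at the 3' UTR (FDR 0.0866) and -2.32 at the promoter (FDR 0.0344). The long noncoding transcript AW112010 had -0.88 downstream (FDR 0.253) and 3.64 at the promoter (FDR 0.00704).

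Gene lists of the tissue were read by the gene name or the gene under the peak, for the members and for all listed peaks alike. The lists share genes, such as Tns1 in the contractile and focal adhesion lists and Lox in the matrix and aneurysm lists. Several peaks of 1 gene were counted singly, as for Csrp1 among the contractile genes, so the counts are not independent. Contractile genes had 9 members, 9 lower and 0 called, against 93 lower and 3 higher among all 96 listed peaks of that list. Of those 96, 14 were called. Of the 4 leukocyte marker peaks in the same table, 3 were higher and 1 lower, with 0 called. The part of leukocytes in the contractile peaks was not tested. Acta2, smooth muscle actin, was 1.52-fold lower in an exon (7.88 to 7.28, FDR 0.236). A distal intergenic peak named for Acta2, outside the members, was higher (4.46 to 5.43, FDR 0.286). A peak in the 3' UTR of Cnn1, calponin, was 3.61-fold lower (4.41 to 2.57, FDR 0.212). Ppp1r14a, an inhibitor of myosin phosphatase, was 2.75-fold lower at its 3' UTR (5.34 to 3.89, FDR 0.0629). Focal adhesion and actin genes had the second largest number, 20 lower and 2 higher with 1 call. The call was Actn4 (alpha-actinin, 2.04-fold lower in an exon, FDR 0.035). Among all 153 listed peaks of the list 135 were lower and 18 higher, and 28 were called. Zyx, zyxin of focal adhesions, had 2 lower 3' UTR peaks (FDR 0.0636 and 0.209). Peaks in the integrin genes Itga5, Itga3 and Itga11 were 2.55-, 1.93- and 1.85-fold lower at FDRs of 0.0777, 0.106 and 0.246. A 3' UTR peak named for the integrin gene Itgb4, in Sap30bp, was 2.03-fold higher (FDR 0.21). The other higher member was a 3' UTR peak of Synpo (1.83-fold, FDR 0.299).

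Matrix genes had 10 lower and 1 higher member, with 2 called, the Loxl1 and Lox peaks above. Over all listed peaks of that list 65 were lower and 5 higher, and 16 of the 70 were called. Col5a1, a fibrillar collagen chain, had 2 lower exon peaks, 6.73-fold from a signal of 4.11 to 1.36 (FDR 0.0929) and 3.20-fold (FDR 0.216). Serpinh1, the collagen chaperone, was 2.79-fold lower (FDR 0.0854). Among 2 protease members, the matrix metalloproteinase gene Mmp3 was 7.36-fold higher in an exon, from 1.35 to 4.23 (FDR 0.0767), and Adam9 was 1.78-fold lower (FDR 0.141). Genes linked to human aneurysm had 9 lower and 1 higher member with 2 calls, the Smyd2 and Lox peaks above. Over all 53 listed peaks of the list 42 were lower and 11 higher, and 9 were called. Lrp1, an endocytic receptor, had exon peaks 3.20- and 3.07-fold lower and a 3' UTR peak, named for Gm16217, 1.89-fold lower, with FDRs of 0.0961, 0.267 and 0.0545.

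Inflammation genes were listed in both directions in the table as a whole. All 6 members were lower, while 15 of the list's 31 listed peaks were lower and 16 higher, and the difference was not tested. Of the 31 peaks, 9 were called. Socs2, a suppressor of cytokine signalling, was the called member, 1.93-fold lower at its 3' UTR (7.38 to 6.43, FDR 0.0404). Relb had 2 members, and its exon peak was 2.95-fold lower (FDR 0.0759). Il1r1, the interleukin 1 receptor, and the chemokine gene Cxcl12 were 1.97- and 2.08-fold lower (FDR 0.206 and 0.252). Oxidative stress and hydrogen sulfide genes had 5 members, all lower and 0 called, against 9 lower and 8 higher over the list. Of its 17 listed peaks, 3 were called. Besides Slc7a11 and the peaks named for Gpx4, Keap1, the sensor that holds NRF2 in check, was 7.21-fold lower in an exon from a low signal of 3.73 to 0.87 (FDR 0.177). No member was named for Cth or lay in it.

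Chromatin regulators had 7 members, all lower. Over that list 57 peaks were lower and 7 higher. The deacetylase gene Hdac7 had a 5' UTR peak that was 1.69-fold lower at a high signal (10.40 to 9.63, FDR 0.249). MAP kinase genes had 6 members, all lower, with Map4k4 (2.81-fold, FDR 0.0254) and Mapk14, p38 alpha (3.03-fold, FDR 0.0296), called, and Dusp4, a MAP kinase phosphatase, at 1.92-fold (FDR 0.0509). Over that list 42 peaks were lower and 6 higher, and 6 of the 48 were called. Solute carriers were the most numerous list, with 24 lower and 3 higher members and 4 calls, against 93 lower and 33 higher over the list. Of its 126 listed peaks, 19 were called. The cell death gene Bbc3 gave its name to 2 lower 3' UTR peaks (FDR 0.189 and 0.301), 1 of them in Sae1. Homeobox, Fox, Sox and T-box factors had 3 members, 2 lower and 1 higher with 1 call, against 47 lower and 13 higher over the list. Of its 60 listed peaks, 13 were called. The called member, named for Gm11444 and lying in the 3' UTR of Tbx2, fell 3.86-fold, from 6.24 to 4.29 (FDR 0.0117). The higher member was a downstream peak of Foxa1 (7.01-fold, from 2.74 to 5.55, FDR 0.249).

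The table gives a miRNA as the nearest gene for 17 members, 16 of them lower. Of these, 12 carry a Mir name, 11 lower and 1 higher, with 2 called, and each of these peaks lay in or past another gene. The other 5 of the 17 members are predicted genes named by number, of which Gm25069 was called (2.99-fold lower, FDR 0.00966, in Crim1). For each of the 2 called Mir genes 1 mature sequence is shown as RefSeq gives it, with the seed (bases 2 to 8) in capitals. A second product of Mir26a-2, mmu-miR-26a-2-3p, is not shown.
mmu-miR-26a-5p: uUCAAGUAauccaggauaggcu
mmu-miR-1966-3p: uUUCUGACucaacucucccuuag
The peak 3.43 kb before the Mir26a-2 start lies in an exon of Ctdsp2, which hosts that miRNA, and fell 1.91-fold, from 7.90 to 6.97 (FDR 0.0418). The peak named for Mir1966 lies in the 3' UTR of Ripor1 and fell 2.55-fold, from 7.74 to 6.39 (FDR 0.0194). The 2 seeds shown differ.

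Overlaps with the other marks were few, as for the other listed H3K9ac peaks. None of the 812 overlapped a listed H3K9me3 peak by 1 bp, also when a gap of 1 kb was allowed, and 4 overlapped a listed H3K4me3 peak (0.493%). Of the 7303 other listed H3K9ac peaks, 4 overlapped H3K9me3 (0.0548%) and 67 overlapped H3K4me3 (0.917%). The differences were not tested. The 4 members were a 3' UTR peak of Zfp281 (2.27-fold higher, FDR 0.149), a 3' UTR peak of 3110006O06Rik, the 5' UTR peak of Hdac7 and an exon peak of Vgll4, a cofactor of TEAD factors. The last 3 were lower, with log2 fold changes of -0.84, -0.76 and -0.82. The H3K4me3 table gives no direction, so the marks could not be compared in sign.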

How the data were processed

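ChIP-seq was done for 3 histone marks with 3 immunoprecipitated and 3 input libraries per mark and genotype. Per the submitters' processing notes the build is mm9 and the tool CASAVA 1.4; aligner, peak caller, normalisation and test were not given in the sources used here. Per the file headers, the deposited tables hold, for each selected peak, the authors' log2 signals (mean normalised reads), log2 fold change, p-value and FDR, and a width and distance (deposited, in bp). How the reads were normalised sets the point where a peak counts as lower, so the split can depend on it. Subtracting the wild-type from the knockout signal gave the deposited fold change within 0.01. No peak with a p under 0.0001 is listed. Gene positions in the table are those of GRCm38, and 34.3 to 57.4% of the listed peaks were at promoters on every chromosome with members. Of 991 peaks on a start site with a RefSeq window of the same symbol, 659 (66.5%) overlapped that GRCm38.p6 window. Coordinates were therefore read as GRCm38.

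Peaks were counted with Python 3.11.15, pandas 2.3.3, numpy 2.4.6 and scipy 1.17.1 and drawn with matplotlib 3.10.9. The gene under a peak came from the exon annotation or from RefSeq gene spans, and for downstream peaks from a gene ending within 3 kb. Intervals are exact binomial at 95%. The counting functions were tested on simulated data. No test was run across peaks, because only group values were used; the planned tests on values per sample were therefore not made. The deposited p-values reflect variation among libraries, which may be technical. The members and gene lists were chosen with earlier results of these data known. Named genes are, per direction, the 6 exon, 5 3' UTR, 3 5' UTR and 3 downstream peaks of smallest p without numbered predicted genes, the 3 largest folds at a mean log2 signal of at least 5, up to 4 examples per list, and genes with 3 or more members. Some genes this rule names are not reported here. Other genes were chosen after their values were seen, as were the genes whose sequences are printed and the motifs.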

Additional observations from a re-analysis of the deposited data

How the results depend on the processing

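The share of members that were lower kept to 86.1 to 90.9% over 9 alternatives, and 46 of all 51 alternative values lay within the interval of the value reported. The lowest came from merging neighbouring members of 1 direction within 100 kb (86.1%). Downstream peaks depended most on the limits: 66.7% of the 18 with an FDR under 0.05 and 89.4% of those with a mean log2 signal of at least 5 were lower. With an FDR limit of 0.1, 31.2% of members were called. Shared direction was 92.3% with any listed peak within 10 kb. All members lie over 3 kb from a start, so that alternative removed none. For the 30 5' UTR peaks, autosomes only, 1 peak per gene and merging removed none either. Values from such settings equal the reported ones by construction, although they are counted among the 46.

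No paired analysis was possible because the tables hold no values per sample. For the same reason leaving out libraries and a second tool were not run, and a result that rests on 1 library could not be seen. The depth is unknown, and the table's selected peaks give no rate among all peaks.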
